A study of Mus musculus with 9 samples.

Results

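The 9 genes described here are the Hedgehog ligands Ihh, Shh and Dhh, the receptors Ptch1 and Smo, the transcription factors Gli1, Gli2 and Gli3, and the ligand-binding antagonist Hhip. They were chosen by name and found by their Ensembl identifiers among 54232 gene identifiers. RNA was measured in wild-type mouse embryonic stem cells differentiated as embryoid bodies, clusters grown from pluripotent cells that form tissues of several germ layers. The groups EBD2, EBD5 and EBD6 had 3 libraries each, all of WT genotype. Their labels differed only in the differentiation named (EBD2, EBD5 or EBD6 differentiation). The labels do not say what the number in a group name stands for, name the cell line or give a culture protocol. All 9 libraries are labelled as embryonic stem cells. Markers of pluripotent cells (Pou5f1, Nanog, Sox2, Zfp42, Esrrb, Klf4, Tfcp2l1 and Dppa3) together stood at 1200 to 1350 CPM (counts scaled to library size) in EBD2, 1040 to 1110 in EBD5 and 1100 to 1210 in EBD6. That sum hides moves in both directions. From EBD2 to EBD5, Sox2 went from 352.7 to 160.0 CPM and Esrrb from 279.7 to 142.0. Tfcp2l1 went from 55.94 to 121.0 and Dppa3 from 18.73 to 60.55. By the test described below, 4 of the 8 rose and 2 fell, against 34.9% and 35.1% of all genes.

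Hedgehog ligands are secreted, lipid-modified proteins. Without ligand the receptor PTCH1 holds SMO inactive, and GLI3 and part of GLI2 are processed to repressors in a way that depends on the primary cilium. With ligand, SMO becomes active, full-length GLI proteins turn on target genes, and Gli1, Ptch1 and Hhip are themselves well-known targets. In the early mouse embryo Ihh is made by visceral endoderm, an outer extraembryonic layer, and Shh by the node, notochord and floor plate.

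Libraries held 5454268 to 11704761 expected counts, that is, estimated read counts per gene. EBD2 replicates 1 and 2, and EBD6 replicates 2 and 3, agreed within sampling noise (chi-square per gene of 0.949 and 1.011, p = 1.0 and 0.17 by the chi-square test of counts), so the libraries of a pair were added up and treated as 1 sample. Means ± SD therefore rest on 2 samples of EBD2, 3 of EBD5 and 2 of EBD6. The labels do not tie the libraries to separate cultures, and the p-values reflect the spread among these samples, part or all of which may be technical. The EBD5 libraries stood apart in RNA composition: ribosomal RNA genes took 0.726% to 0.811% of counts there and at most 0.0247% in any other library. Fold changes also ran with the GC content of transcripts, with Spearman's rho of −0.37 over 13746 protein-coding genes for EBD5 against EBD2 and 0.56 for EBD6 against EBD5. That is a description across genes, which are not independent replicates. GC content of the longest transcript was 62.3% for Ihh, 59.0% for Gli1, 57.8% for Smo, 57.5% for Gli2, 48.4% for Gli3, 47.8% for Ptch1 and 41.2% for Hhip. Each fit was therefore repeated with offsets from bins of genes alike in GC content and length, and values it moved by over 1.5 times are given beside the result for each of the 9 genes.

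The sequences just upstream of 4 of these genes are shown because 3 of them (Ptch1, Gli2 and Hhip) were lower in EBD5 than in EBD2 while Ihh was higher. Each line gives the 250 bases before the RefSeq start (build GRCm38.p6), 5′ to 3′ on the gene's own strand, which is the minus strand for all 4. Capitals mark the GC box CCGCCC, or GGGCGG on the other strand, and in Gli2 also GGGTGGT, the reverse complement of ACCACCC.
Ihh, chr1:74951673-74951922: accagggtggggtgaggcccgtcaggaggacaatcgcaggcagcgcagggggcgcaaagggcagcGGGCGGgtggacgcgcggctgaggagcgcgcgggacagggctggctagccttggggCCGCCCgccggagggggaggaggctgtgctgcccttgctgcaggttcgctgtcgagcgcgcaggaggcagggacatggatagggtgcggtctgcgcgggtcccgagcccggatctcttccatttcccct
Ptch1, chr13:63565736-63565985: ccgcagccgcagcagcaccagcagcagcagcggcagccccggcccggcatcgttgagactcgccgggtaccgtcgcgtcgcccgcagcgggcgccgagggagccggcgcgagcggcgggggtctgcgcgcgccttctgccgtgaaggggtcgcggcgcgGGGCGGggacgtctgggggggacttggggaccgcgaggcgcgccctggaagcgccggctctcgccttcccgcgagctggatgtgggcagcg
Gli2, chr1:119053620-119053869: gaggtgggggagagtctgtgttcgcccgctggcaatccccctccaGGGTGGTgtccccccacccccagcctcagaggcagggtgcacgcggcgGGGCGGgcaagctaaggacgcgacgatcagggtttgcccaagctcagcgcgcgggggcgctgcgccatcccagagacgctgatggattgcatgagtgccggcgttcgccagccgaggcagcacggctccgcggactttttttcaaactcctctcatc
Hhip, chr8:80058009-80058258: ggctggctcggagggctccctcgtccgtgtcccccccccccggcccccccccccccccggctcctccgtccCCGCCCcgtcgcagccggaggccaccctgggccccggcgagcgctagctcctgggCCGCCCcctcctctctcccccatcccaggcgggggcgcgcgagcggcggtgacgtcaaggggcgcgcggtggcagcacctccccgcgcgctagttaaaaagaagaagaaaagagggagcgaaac
The Ptch1 window lies directly before the first exon of one transcript and inside the gene as GENCODE draws it, since other transcripts start further upstream. RefSeq's table held such windows for 7 of the 9 genes. Every window was searched on both strands for GACCACCCA, the consensus site of GLI proteins, and for ACCACCC, which lies within it. GACCACCCA was in none of the 7 windows and in 0.225% of all 32851. ACCACCC was in 1 of the 7, that of Gli2, where it begins 205 bases before the start, and in 3.92% of all. GC boxes were in 6 of the 7 windows (all but Smo) and in 32.7% of all. The 4 windows shown had 67.2% to 78.4% G and C, against a median of 52.4% over all windows. A match here is a match of letters, and a window without one says nothing of sites elsewhere.

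**Figure D1:**
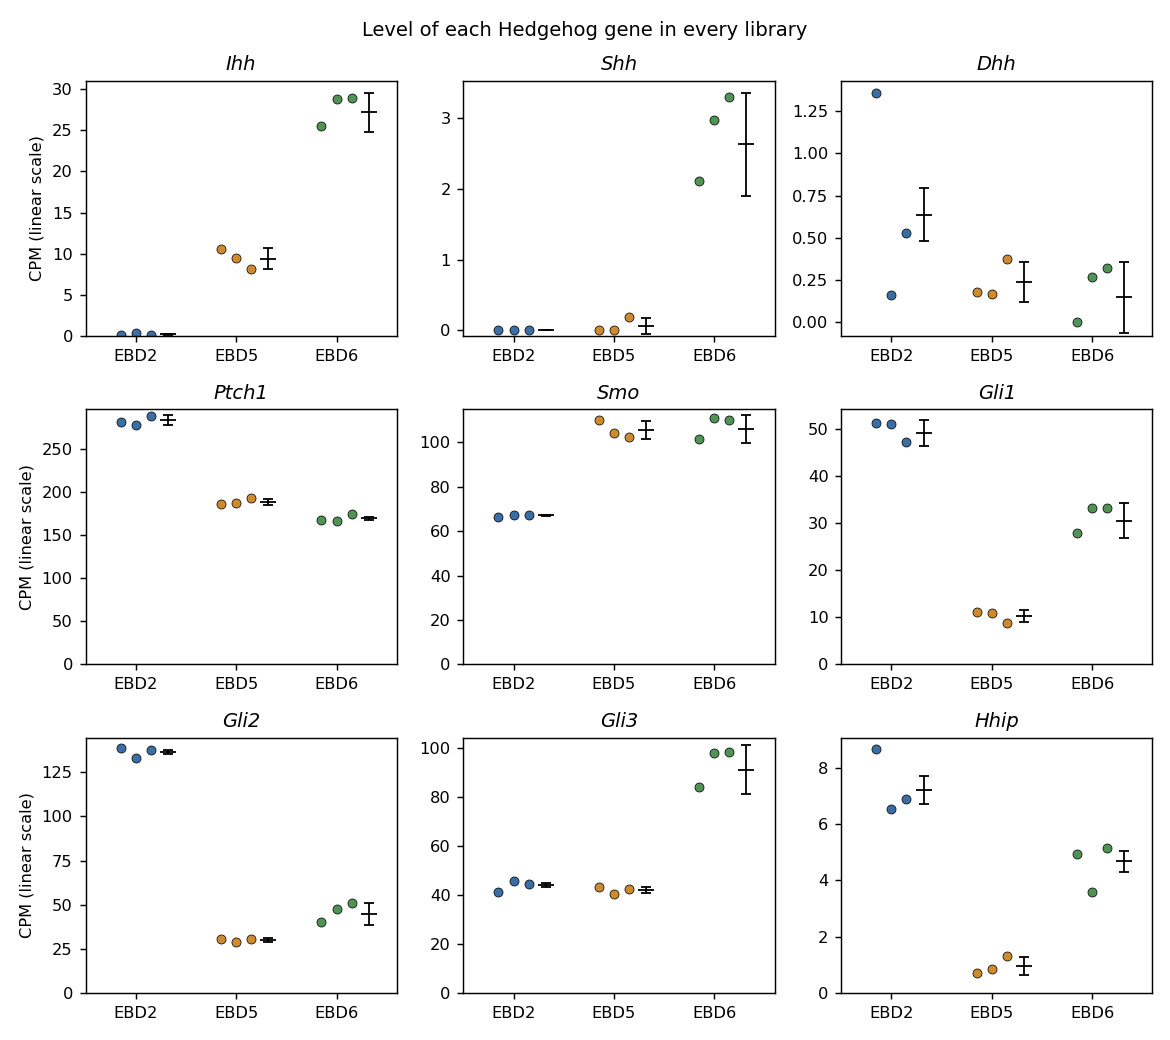
Level of each of the 9 genes in every library, in CPM on a linear axis, with points for replicates 1 to 3 from left to right in each group and, beside them, the mean ± SD over samples after near-identical pairs were summed. Ihh and Shh are highest in EBD6, Ptch1, Gli1, Gli2 and Hhip are highest in EBD2, and Smo is lowest in EBD2.

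Between EBD2 and EBD5, Ihh and Smo were higher and 4 of the genes that act below or against the ligand were lower. Of the 9 genes, 8 passed the filter on low counts. Shh passed only through its counts in EBD6, Ihh only through EBD5 and EBD6, and Hhip only through EBD2 and EBD6. In edgeR's quasi-likelihood test with Benjamini-Hochberg adjustment, 2 of the 8 were higher in EBD5 (Ihh and Smo), against 34.9% of all 16168 genes tested. Those lower were 4 of the 8 (Ptch1, Gli1, Gli2 and Hhip), against 35.1% of all genes. Gli3 and Shh did not pass. Between EBD5 and EBD6, 6 of the 8 were higher in EBD6 (Ihh, Shh, Gli1, Gli2, Gli3 and Hhip), against 36.9% of all genes, and 1 was lower (Ptch1), against 33.3%. Between EBD2 and EBD6, 4 were higher in EBD6 (Ihh, Shh, Smo and Gli3), against 33.8%, and 4 were lower (Ptch1, Gli1, Gli2 and Hhip), against 32.3%. With 32.3% to 36.9% of all genes passing in each direction, these counts alone are no result about Hedgehog genes, and the values of each gene follow. The 3 comparisons share samples in pairs, so their values are set side by side and not tested against each other. In bulk RNA, fewer cells of a type and less RNA per cell cannot be told apart.

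Ihh, the ligand of visceral endoderm, gut and growing cartilage, went from near absence to the most abundant ligand. Its counts were 1, 2 and 1 in the EBD2 libraries, 59, 57 and 43 in EBD5, and 145, 320 and 360 in EBD6. In CPM these were 0.170, 0.326 and 0.176, then 10.6, 9.53 and 8.12, then 25.5, 28.8 and 28.9. The groups did not overlap, and every EBD6 library stood above every EBD5 library. Group means were 0.213 ± 0.0519 CPM (SD, n = 2), 9.42 ± 1.25 (n = 3) and 27.2 ± 2.34 (n = 2). EBD5 over EBD2 gave a ratio of 41.8, with a 95% counting interval from 16.0 to 155. The interval is wide because EBD2 held only 4 counts in all. The log2 fold change was 5.30 ± 0.33 (SE, edgeR), and 6.06 with GC and length offsets. EBD6 over EBD2 gave 125, with an interval from 48.6 to 459. P-values against EBD2 are not given as support, since Ihh passed the filter only through the groups in which it was high. From EBD5 to EBD6, Ihh rose by 1.54 ± 0.14 on the log2 scale (adjusted p = 2.31e-06, edgeR). With GC and length offsets this rise was 0.56 (adjusted p = 0.00202, edgeR), and it still passed. Counting intervals cover counting error only.

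Visceral endoderm markers moved with Ihh between EBD2 and EBD5. All 8 of them (Afp, Ttr, Apoa1, Apoa4, Cubn, Amn, Hnf4a and Rhox5) were higher in EBD5, and their summed level went from 41.8 to 44.9 CPM in EBD2 to 1590 to 1620 in EBD5, with Apoa4 at 0 in EBD2. In EBD6 the sum was 889 to 931 CPM, below EBD5, while Ihh was higher than in EBD5. Cubn alone made up most of the EBD5 sum, at 1125 CPM there and 405.9 in EBD6, so the fall of the sum mostly follows Cubn. From EBD5 to EBD6, 3 of the 8 rose (Afp, Amn and Rhox5), 4 fell (Apoa1, Apoa4, Cubn and Hnf4a) and 1 did not pass (Ttr). Markers of lateral and extraembryonic mesoderm (Hand1, Hand2, Tbx20, Bmp4, Foxf1 and Ahnak) had a summed level that, like Ihh, was lowest in EBD2 and highest in EBD6. It was 84.5 to 92.6 CPM in EBD2, 254 to 272 in EBD5 and 419 to 436 in EBD6, with Hand2 at 0 in EBD5. Ahnak alone made up most of that sum, at 68.9, 239.0 and 315.9 CPM. Hand1 stood at 0.981, 4.30 and 67.0 CPM, Tbx20 at 0.21, 7.5 and 8.0, and Foxf1 at 0.810, 1.59 and 3.79. Bmp4 was at 16.0, 12.3 and 28.0 CPM, and Hand2 at 0.504, 0 and 1.41. Of 5 tested, 3 rose and 1 fell from EBD2 to EBD5, 4 rose from EBD5 to EBD6, and 5 were higher in EBD6 than in EBD2. Over all genes tested, 34.9% rose and 35.1% fell from EBD2 to EBD5, and 36.9% rose and 33.3% fell from EBD5 to EBD6. In EBD6 against EBD2, 33.8% of all genes were higher. Bmp4 and Foxf1 are also among the pathway targets listed further on. The part of either marker list in the Ihh result was not tested.

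Shh, the ligand of node, notochord and floor plate, was detected mainly in EBD6. It had 0 counts in all 3 EBD2 libraries, 0, 0 and 1 in EBD5, and 12, 33 and 41 in EBD6. In CPM the EBD6 libraries stood at 2.11, 2.97 and 3.29, with a mean of 2.63 ± 0.725 (SD, n = 2). The EBD6 libraries did not overlap with the others, and EBD2 and EBD5 could not be told apart at this depth, where 3 counts over a group correspond to 0.169 and 0.178 CPM. By counts summed over each group and divided by the summed library sizes, Shh was at least 17.3-fold higher in EBD6 than in EBD2, taking 3 counts over the EBD2 group as the limit. Against EBD5 the ratio of summed counts was 49.5, with a counting interval from 8.65 to 1980. Its p-values are not given as support, since the gene passed the filter only through the group in which it was high. The single EBD5 count came from replicate 3, without which that group was at 0. Of the exon bases of Shh, 28.35% overlap 2 non-coding genes on the opposite strand, and some of its reads may belong to them, since the sources used here do not give the strand setting of the counting.

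Markers of node and notochord had a summed level that, like Shh, was highest in EBD6. Of the 5 fixed markers (Noto, T, Foxj1, Chrd and Nog), 4 were tested. All 4 were higher in EBD6 than in EBD5, against 36.9% of all genes. From EBD2 to EBD5, 1 rose (Nog, from 5 to 31 counts), 1 fell (Chrd) and 2 did not pass, against 34.9% and 35.1% of all genes that rose and fell. The summed level of the 5 markers was 9.86 to 12.6 CPM in EBD2, 8.31 to 10.4 in EBD5 and 52.0 to 59.8 in EBD6. Noto, the most restricted of them, had 4 counts in EBD2, 0 in EBD5 and 5 in EBD6 and was not tested. Neuroectoderm markers (Sox1, Pax6, Six3, Zic1 and Tubb3) were also higher in EBD6 than in EBD5 in 5 of 5 cases, at 182 to 187 CPM against 66.4 to 74.6, and stood at 143 to 152 in EBD2. Their part in the Shh result was not tested.

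Dhh, the ligand best known from gonads and peripheral nerve sheaths, was near the detection limit throughout. Its counts were 8, 1 and 3 in EBD2, 1, 1 and 2 in EBD5, and 0, 3 and 4 in EBD6. The groups overlapped, Dhh failed the filter on low counts, and it was not tested. Its ratio was 0.353 for EBD6 over EBD2, with a counting interval from 0.118 to 0.973 that leaves out the spread between libraries. EBD2 replicate 1 held 8 of the 12 EBD2 counts. A share of 37.58% of its exon bases overlaps other genes, among them Rhebl1 on the same strand.

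Per kilobase of exon, the ligand pool was mostly Ihh in EBD5 and EBD6. Ihh made up 94.6% to 98.8% of the 3 ligands in the EBD5 libraries and 88.5% to 91.9% in EBD6, where Shh made up 8.14% to 10.8%. In EBD2 the shares rest on 3 to 9 ligand counts per library and are not read.

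Ptch1, the receptor that restrains SMO and is also induced by the pathway, was highest in EBD2. Its levels were 281.8, 277.5 and 288.1 CPM in EBD2, 186.6, 187.5 and 192.8 in EBD5, and 168.2, 166.7 and 174.4 in EBD6. The 3 groups did not overlap, and EBD6 lay just under EBD5. Ptch1 fell by 0.59 ± 0.06 on the log2 scale from EBD2 to EBD5 (adjusted p = 3.89e-06, edgeR with Benjamini-Hochberg adjustment). It was lower by 1.67-fold in EBD6 than in EBD2 (log2 fold change −0.74 ± 0.06, adjusted p = 1.34e-06, edgeR). The step from EBD5 to EBD6 was small, at −0.16 ± 0.06 (adjusted p = 0.0295, edgeR), and was not stable. It no longer passed with EBD5 replicates 1 and 3 counted as 1 sample (adjusted p = 0.0608, edgeR) or without a filter on low counts (−0.10, adjusted p = 0.283, edgeR), and with library totals in place of TMM scaling it was 0.01. Leaving out EBD5 replicate 1, EBD5 replicate 3 or EBD6 replicate 1 also ended that call, with adjusted p of 0.0573, 0.0803 and 0.0983 by edgeR.

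Smo, the membrane protein that passes the signal on, moved the other way. Its levels were 66.3, 67.2 and 67.3 CPM in EBD2, 110.0, 104.0 and 102.2 in EBD5, and 101.6, 110.9 and 110.2 in EBD6. EBD2 lay below every other library, and EBD5 and EBD6 overlapped. Smo rose by 0.65 ± 0.07 on the log2 scale from EBD2 to EBD5 (adjusted p = 7.47e-06, edgeR with Benjamini-Hochberg adjustment) and was higher by 0.67 ± 0.07 in EBD6 than in EBD2 (adjusted p = 9.21e-06, edgeR). Between EBD5 and EBD6 the value was 0.02 ± 0.06 (adjusted p = 0.806, edgeR). Smo depended on the treatment of GC content and length. With those offsets it was 1.24 for EBD5 against EBD2, −1.0 for EBD6 against EBD5 (adjusted p = 1.02e-06, edgeR) and 0.23 for EBD6 against EBD2 (adjusted p = 0.0199, edgeR). Whether Smo differed between EBD5 and EBD6 therefore rests on that choice, while its direction against EBD2 was the same under both.

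Within a library, Ptch1 and Smo can be compared per length. The ratio of Ptch1 to Smo, in counts per kilobase of exon, was 1.64 to 1.70 in EBD2, 0.672 to 0.748 in EBD5 and 0.596 to 0.656 in EBD6. Ptch1 thus stood above Smo in all 3 EBD2 libraries and below it in the 6 others. These ratios are not adjusted for GC content, which is 47.8% in Ptch1 and 57.8% in Smo. With the offsets, EBD5 against EBD2 was −0.66 for Ptch1 and 1.24 for Smo, the same order of change, but EBD6 against EBD5 was −0.18 and −1.0, so that the ratio would rise from EBD5 to EBD6 where it fell as printed.

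**Figure D2:**
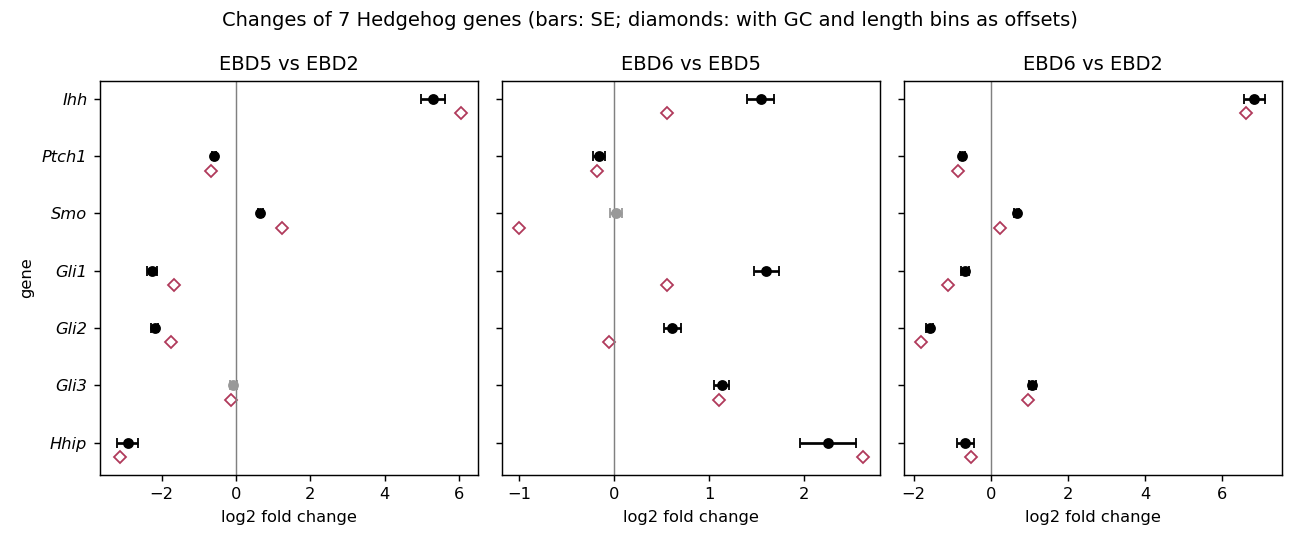
Log2 fold change (x axis) of the 7 tested genes with counts in every group (y axis) in each comparison, first group over second. Circles with bars give the value ± SE from edgeR, black where the adjusted p was under 0.05 and grey where it was not, and open diamonds give the value with GC and length offsets. With the offsets Gli2 and Smo change sign for EBD6 against EBD5, and none of the 7 changes sign in the comparisons with EBD2.

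Gli1, an activator whose transcription is the most direct textbook readout of the pathway, was lowest in EBD5. Its levels were 51.2, 50.9 and 47.2 CPM in EBD2, 11.15, 10.9 and 8.69 in EBD5, and 27.8, 33.2 and 33.1 in EBD6. The groups did not overlap, with EBD6 between the other two. Gli1 fell by 2.26 ± 0.13 on the log2 scale from EBD2 to EBD5, which is 4.80-fold (adjusted p = 6.84e-08, edgeR with Benjamini-Hochberg adjustment). From EBD5 to EBD6 it rose 3.03-fold (log2 fold change 1.60 ± 0.13, adjusted p = 1.15e-06, edgeR), and by 0.56 with GC and length offsets (adjusted p = 0.000756, edgeR). EBD6 remained lower than EBD2, at −0.67 ± 0.11 (adjusted p = 0.000336, edgeR) and −1.12 with the offsets. Arhgap9 and a non-coding gene overlap 6.55% of its exon bases on the opposite strand. The sum of neuroectoderm markers was lowest in EBD5 too, at 143 to 152 CPM in EBD2, 66.4 to 74.6 in EBD5 and 182 to 187 in EBD6. Unlike Gli1, that sum was highest in EBD6. Sox1 stood at 61.0, 34.8 and 58.5 CPM, Pax6 at 52.9, 26.0 and 46.7, and Tubb3 at 31.7, 5.02 and 34.3. Six3, at 0.338, 3.29 and 29.7 CPM, and Zic1, at 0.296, 0.717 and 15.3, were lowest in EBD2 and highest in EBD6. Of these 5 markers, 1 rose and 3 fell from EBD2 to EBD5, against 34.9% and 35.1% of all genes. From EBD5 to EBD6, 5 rose, against 36.9% of all genes. The sum of endothelium markers (Cdh5, Pecam1, Kdr, Tie1 and Tek) was also lowest in EBD5. It was 163 to 169 CPM in EBD2, 77.7 to 81.4 in EBD5 and 141 to 154 in EBD6. Pecam1 alone made up most of that sum, at 152.0, 60.24 and 81.28 CPM. Of the 4 tested, 3 rose from EBD2 to EBD5 and 1 (Pecam1) fell. Cdh5 stood at 0.1712, 2.041 and 44.8 CPM and Kdr at 0.3424, 1.303 and 9.398, both lowest in EBD2 and highest in EBD6. Tek was at 11.58, 15.99 and 9.446 CPM, and Tie1, which was not tested, at 1.981, 0.3675 and 1.299. The part of these markers in the courses of Gli1, Gli2 and Hhip was not tested.

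Gli2, which encodes the main activator in most tissues, was highest in EBD2. It stood at 138.9, 132.8 and 137.4 CPM in EBD2, 30.4, 28.8 and 30.8 in EBD5, and 40.2, 47.3 and 50.8 in EBD6. No library of one group reached the range of another. Gli2 fell 4.56-fold from EBD2 to EBD5 (log2 fold change −2.19 ± 0.09, adjusted p = 6.6e-09, edgeR with Benjamini-Hochberg adjustment) and was 2.99-fold lower in EBD6 than in EBD2 (−1.58 ± 0.09, adjusted p = 7.58e-08, edgeR). The rise from EBD5 to EBD6 was 0.61 ± 0.09 (adjusted p = 0.000154, edgeR), and with GC and length offsets it was −0.06 (adjusted p = 0.563, edgeR).

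Gli3, the main source of GLI repressor, followed another course. Its levels were 41.4, 45.7 and 44.6 CPM in EBD2, 43.1, 40.5 and 42.5 in EBD5, and 84.2, 97.9 and 98.4 in EBD6. EBD2 and EBD5 overlapped, and all 3 EBD6 libraries lay above both. The value for EBD5 against EBD2 was −0.07 ± 0.09 (adjusted p = 0.524, edgeR with Benjamini-Hochberg adjustment), and −0.13 with GC and length offsets (adjusted p = 0.129, edgeR). Gli3 was 2.19-fold higher in EBD6 than in EBD5 (log2 fold change 1.13 ± 0.08, adjusted p = 5.45e-07, edgeR) and 2.09-fold higher than in EBD2 (1.07 ± 0.09, adjusted p = 1.49e-06, edgeR).

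The make-up of the Gli family changed accordingly. Gli2 took 56.4% to 58.7% of the 3 Gli genes per kilobase of exon in EBD2, 39.6% to 42.1% in EBD5 and 28.9% to 30.5% in EBD6. Gli3 took 12.4% to 13.9%, then 39.9% to 41.6%, then 42.2% to 43.5%. Gli1 took 27.7% to 29.7%, then 16.3% to 20.6%, then 27.3% to 28.0%. The ratio of Gli3 to Gli2 had a median of 0.232 in EBD2, 1.01 in EBD5 and 1.48 in EBD6. The ranges of that ratio over libraries did not overlap between groups. These are shares of transcript, and do not tell how much of each protein was activator or repressor. They are not adjusted for GC content, which is 59.0% in Gli1, 57.5% in Gli2 and 48.4% in Gli3. With GC and length offsets, Gli2 still fell more than Gli3 from EBD2 to EBD5, at −1.74 against −0.13. From EBD5 to EBD6 the rise of Gli1 was smaller with the offsets and Gli2 no longer rose, as given above. Changes in the shares between EBD5 and EBD6 therefore depend on that choice.

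**Figure D3:**
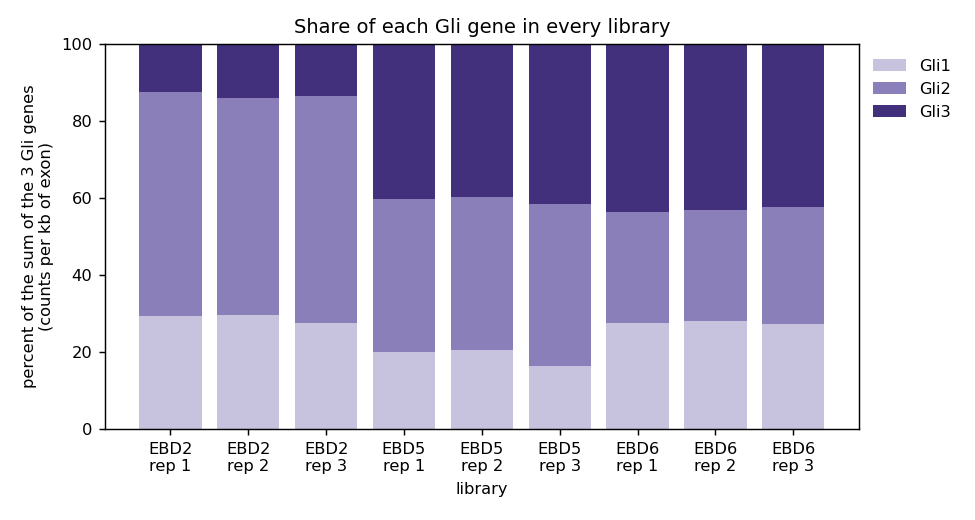
Share of Gli1, Gli2 and Gli3 (stacked bars, in percent of their sum in counts per kilobase of exon, y axis) in each of the 9 libraries (x axis). Gli2 holds over 56% of each EBD2 bar, and Gli3 holds 42.2% or more of each EBD6 bar. The shares are not adjusted for GC content.

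Hhip, a membrane protein that binds and sequesters the ligands, was low throughout and lowest in EBD5. Its counts were 51, 40 and 39 in EBD2, 4, 5 and 7 in EBD5, and 28, 40 and 64 in EBD6. In CPM these were 8.65, 6.53 and 6.87, then 0.719, 0.836 and 1.32, then 4.93, 3.60 and 5.14. The 3 groups did not overlap, and EBD6 lay between the others. Hhip fell by 2.92 ± 0.28 on the log2 scale from EBD2 to EBD5, or 7.56-fold (edgeR). It rose 4.77-fold from EBD5 to EBD6 (log2 fold change 2.25 ± 0.29, edgeR). P-values against EBD5 are not given as support, since Hhip passed the filter only through the groups in which it was higher. EBD6 against EBD2 was at −0.66 ± 0.22 (adjusted p = 0.02, edgeR). That call was lost with DESeq2 (adjusted p = 0.221), with no filter (0.0523, edgeR), with GC and length offsets (0.0512, edgeR) and without EBD2 replicate 1 (0.0672, edgeR) or EBD6 replicate 2 (0.0557, edgeR).

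Gli1, Ptch1 and Hhip, 3 textbook targets, moved by different amounts. Per kilobase of exon, Gli1 over Ptch1 was 0.465 to 0.521 in EBD2, 0.128 to 0.170 in EBD5 and 0.470 to 0.565 in EBD6. Hhip over Ptch1 was 0.0368 to 0.0480, then 0.00602 to 0.0107, then 0.0337 to 0.0461. Both ratios were lowest in all 3 EBD5 libraries, and EBD2 and EBD6 overlapped in both. The ratios are not adjusted for GC content, which is higher in Gli1 than in Ptch1, and with the offsets Gli1 still fell more than Ptch1 from EBD2 to EBD5, at −1.68 against −0.66. With the offsets Gli1 rose less from EBD5 to EBD6 and stood further below EBD2 in EBD6, as given above. How far Gli1 over Ptch1 rose again in EBD6 therefore depends on that choice.

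In order of level per kilobase of exon, Ptch1 and Gli2 led in EBD2 with ranges that overlapped (19.6 to 20.3 and 19.3 to 20.2 CPM per kb). Smo, Gli1, Gli3 and Hhip came next, in that order, with no overlap between neighbours. In EBD5 the order was Smo (18.2 to 19.6), Ptch1 (13.2 to 13.6), then Gli3 and Gli2, which overlapped, then Ihh (2.66 to 3.48), Gli1 and Hhip. In EBD6 Smo and Ptch1 led again, Gli3 (8.78 to 10.3) and Ihh (8.38 to 9.48) overlapped, and so did Gli2 and Gli1, followed by Shh (0.743 to 1.16) and Hhip (0.396 to 0.566). Ihh thus stood below all 3 Gli genes in EBD2, above Gli1 alone in EBD5, and above Gli1 and Gli2 in EBD6.

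**Figure D4:**
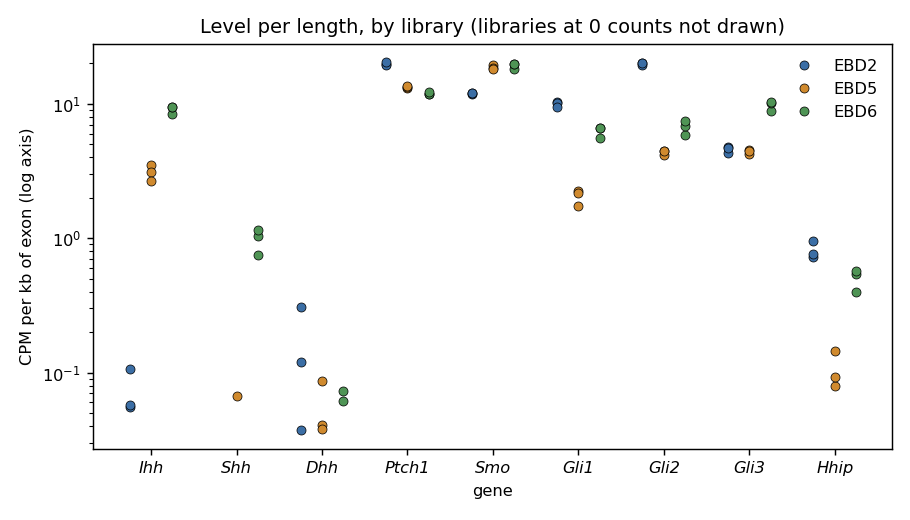
Level per length of each of the 9 genes (x axis), in CPM per kilobase of exon on a log axis, with 1 point per library coloured by group and libraries at 0 counts not drawn. The receptors and Gli genes lie above 1 in every library, Ihh spans from 0.0557 in EBD2 to 9.48 in EBD6, and Dhh stays at 0.309 or below.

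Beyond these 9 genes, 52 further genes of the pathway were listed by role, of which 47 were tested. From EBD2 to EBD5, 13 rose, 20 fell and 14 did not pass, where 34.9% and 35.1% of all genes rose and fell, with a median log2 fold change of −0.23 against −0.01 over all genes tested. From EBD5 to EBD6, 25 rose, 9 fell and 13 did not pass, where 36.9% and 33.3% of all genes rose and fell, with a median of 0.32 against 0.04. With GC and length offsets, 12 rose and 14 fell from EBD2 to EBD5, and 19 rose and 8 fell from EBD5 to EBD6. EBD6 against EBD2 gave 19 higher, 13 lower and 15 that did not pass, where 33.8% and 32.3% of all genes were higher and lower, with a median of 0.12 against 0.01. The lists by role hold 5 to 12 genes each, and their counts stand beside the same shares of all genes and are given as descriptions.

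Among genes that modify and release ligands, Scube2, a secreted carrier of lipid-modified ligand, went from 4.21 ± 1.22 CPM in EBD2 to 18.3 ± 3.19 in EBD5 and stood at 17.9 in EBD6. It rose by 2.05 ± 0.22 on the log2 scale from EBD2 to EBD5 (adjusted p = 1.16e-05, edgeR with Benjamini-Hochberg adjustment). Its relative Scube3 fell from 86.9 to 36.6 CPM (adjusted p = 2.28e-07, edgeR) and was at 62.3 in EBD6, while Scube1 was highest in EBD6, at 13.4 CPM against 3.98 in EBD5 (adjusted p = 9.36e-05, edgeR). Of the 5 genes in this list, 1 rose and 2 fell from EBD2 to EBD5, against 34.9% and 35.1% of all genes. From EBD5 to EBD6, 3 rose, against 36.9% of all genes. Against EBD2, 4 were higher in EBD6 and 1 (Scube3) was lower, where 33.8% and 32.3% of all genes were.

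Of 5 co-receptors and binding proteins, 2 rose, 0 fell and 3 did not pass from EBD2 to EBD5. Of all genes, 34.9% rose and 35.1% fell. Gpc3, a glypican that competes with Ptch1 for ligand, stood at 96.1 CPM in EBD2, 501.1 in EBD5 and 271.6 in EBD6, and Lrp2, an endocytic receptor that binds SHH, at 301.0, 817.6 and 262.6. Both rose by over 1 on the log2 scale from EBD2 to EBD5, at 2.39 ± 0.08 (adjusted p = 1.44e-09, edgeR) and 1.44 ± 0.07 (adjusted p = 1.72e-08, edgeR). Cdon and Gas1, co-receptors that promote signalling, did not pass from EBD2 to EBD5 and were higher in EBD6 than in EBD5, at 0.32 ± 0.08 and 0.73 ± 0.12 (adjusted p = 0.00292 and 0.000272, edgeR), the latter turning to −0.26 with GC and length offsets.

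Of 9 regulators of SMO and GLI, 1 rose and 5 fell from EBD2 to EBD5, against 34.9% and 35.1% of all genes. From EBD5 to EBD6, 5 rose and 2 fell, against 36.9% and 33.3% of all genes. Kif7, the ciliary kinesin that organises GLI proteins, stood at 31.0 CPM in EBD2, 11.6 in EBD5 and 23.4 in EBD6 (EBD5 against EBD2 −1.42 ± 0.12, adjusted p = 1.63e-06, edgeR, and −0.73 with GC and length offsets). Its rise from EBD5 to EBD6 was 1.03 ± 0.12 (adjusted p = 1.83e-05, edgeR). With the offsets that rise was 0.10 and no longer passed (adjusted p = 0.502, edgeR). Grk2, a kinase that phosphorylates SMO, stood at 114.8, 60.3 and 115.4 CPM. It fell by 0.92 ± 0.07 from EBD2 to EBD5 (adjusted p = 1.17e-06, edgeR) and rose by 0.94 ± 0.07 from EBD5 to EBD6 (adjusted p = 8.77e-07, edgeR), and with the offsets these were −0.54 and 0.30. Sufu, the inhibitor that holds GLI proteins in the cytoplasm, was at 47.0, 39.0 and 66.0 CPM, and its rise from EBD5 to EBD6 was 0.79 ± 0.11 (adjusted p = 7.94e-05, edgeR) and 0.35 with the offsets. Evc and Evc2, partners of SMO in the cilium, fell from EBD2 to EBD5 by 0.55 ± 0.10 and 0.46 ± 0.12 (adjusted p = 0.00049 and 0.00462, edgeR). With the offsets Evc was at −0.22, and Evc2 no longer passed (adjusted p = 0.97, edgeR).

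Among 11 GLI kinases and ubiquitin ligases, 5 rose and 4 fell from EBD2 to EBD5, against 34.9% and 35.1% of all genes. From EBD5 to EBD6, 4 rose and 4 fell, against 36.9% and 33.3% of all genes. Stk36, a relative of the fly kinase fused, went from 14.3 to 4.03 to 8.54 CPM (EBD5 against EBD2 −1.81 ± 0.18, adjusted p = 4.98e-06, edgeR). Gsk3b, a kinase that takes part in GLI processing, went from 97.4 to 177.0 to 178.6 CPM (EBD5 against EBD2 0.86 ± 0.06, adjusted p = 4.62e-07, edgeR). Of 10 genes for ciliary transport and structure, 3 rose and 5 fell from EBD2 to EBD5. From EBD5 to EBD6, 5 rose and 1 fell, and the same shares of all genes apply. Ift172, an intraflagellar transport subunit, was at 69.8, 33.6 and 62.1 CPM (EBD5 against EBD2 −1.05 ± 0.09, adjusted p = 2.47e-06, edgeR).

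Of 12 tissue targets, 7 were tested. Foxa2, a target in the floor plate that also marks endoderm and node, had 8 counts in EBD2, 581 in EBD5 and 1285 in EBD6, or 0.519, 34.5 and 43.0 CPM (EBD5 against EBD2 6.21 ± 0.23, edgeR). Foxa2 passed the filter only through EBD5 and EBD6, so no p-value is given for it. Olig2, a target in the ventral neural tube, went from 29.7 to 6.29 to 5.25 CPM (EBD5 against EBD2 −2.25 ± 0.14, adjusted p = 1.83e-07, edgeR). Nkx6-1, also ventral neural, had 3 counts in EBD2, 2 in EBD5 and 220 in EBD6. Like Shh, Nkx6-1 passed the filter on low counts only through EBD6, so no p-value is given for it either. Bmp4, a target in mesoderm next to Ihh-making endoderm, was at 16.0, 12.3 and 28.0 CPM and rose from EBD5 to EBD6 by 1.19 ± 0.11 (adjusted p = 3.22e-06, edgeR).

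**Figure D5:**
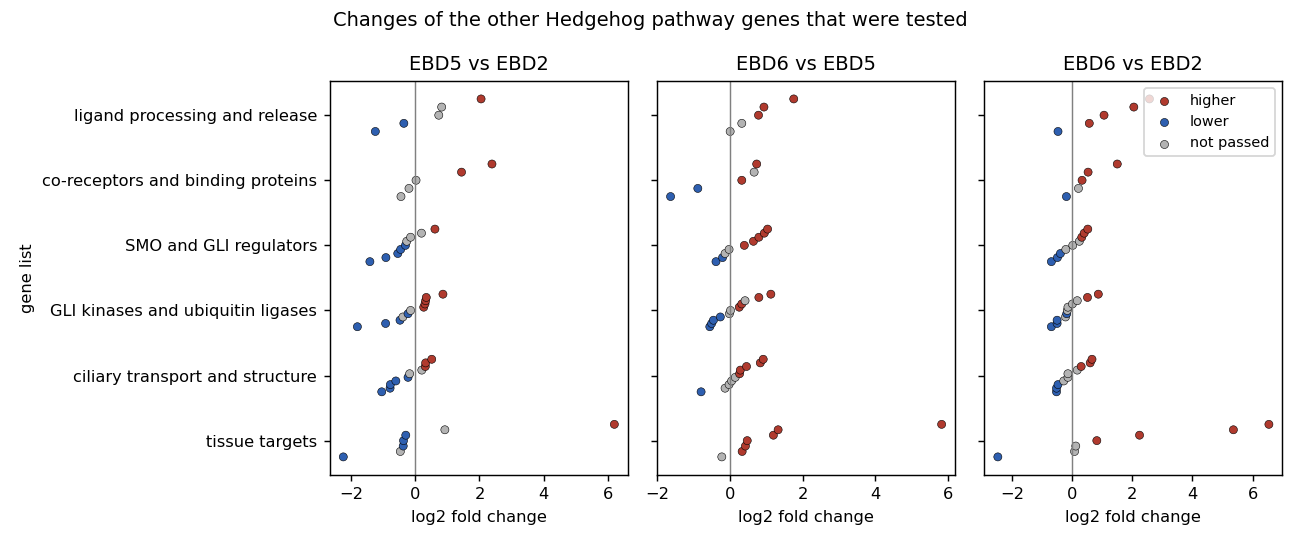
Log2 fold change (x axis) of the 47 tested further genes of the pathway, by role (y axis), in each comparison, with 1 point per gene. Red marks genes higher in the first group, blue those lower, at an adjusted p under 0.05 by edgeR, and grey those that did not pass. From EBD5 to EBD6, 25 points are red and 9 blue.

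The genes whose course over the 7 samples lay nearest to that of Ihh, by the root mean square difference of centred log2 levels among 13620 protein-coding genes, were Gjb2 (0.15), Igf2 (0.156), Capn6 (0.206), Acta2 (0.209) and Plat (0.211). Igf2, a growth factor, stood at 18.1, 251.0 and 716.0 CPM in EBD2, EBD5 and EBD6. Nearest to Ptch1 were Ralgps2 (0.036), Chd8 (0.043), Tmem45a (0.044), Spice1 (0.046) and B3glct (0.046). Nearest to Gli1 were Map4k1 (0.095), Rusc2 (0.118), Psmb10 (0.128), Catsperz (0.129) and Rbmxl2 (0.13). None of the 15 genes named was among the listed pathway genes.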

How the data were processed

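Polyadenylated RNA was measured in 9 libraries, made with a KAPA RNA Hyperprep kit and sequenced on HiSeq and NovaSeq instruments, per the labels' protocols. Which library ran on which instrument is not given in the sources used here. The submitters' processing notes name RSEM 1.3.30, STAR 2.7.10a, cutadapt 1.18, DESeq2 1.38.3 and edgeR 3.40.2, with build mm10, without roles. The authors deposited expected counts per gene, estimated read counts not scaled to depth or length, of which 90.9% to 94.6% per library were whole. The sources used here give neither annotation release nor strand setting.

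The expected counts were rounded. A row naming no gene, at most 0.0157% of a library, was left out. Symbols, positions and exon lengths came from GENCODE M21 (99.9% of identifiers), and upstream sequences from RefSeq. Near-identical libraries, by a chi-square test of counts over genes, were summed, which left 7 samples. Genes kept by filterByExpr (16168) were scaled by TMM and tested by the quasi-likelihood test of edgeR 4.0.16 under R 4.3.3, with all groups in one fit without covariates, 4 residual degrees of freedom and a biological coefficient of variation of 6.72%. Benjamini-Hochberg adjustment ran over all genes tested, with calls under 0.05. The SE is the log2 fold change divided by the square root of F. CPM used TMM-scaled totals. Where a group had no count, 3 counts over the group served as the limit.

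On simulated counts for 16168 genes with 67 changed by a fold of 1.5, the test recovered 53 for EBD5 against EBD2, 48 for EBD6 against EBD5 and 54 for EBD6 against EBD2. At a fold of 2 it recovered 66, 66 and 65 of 67. Genes changed by folds of 1.5, 2 and 4 were in the same simulated counts, and false calls numbered 12, 8 and 11. The changed genes were drawn only from well-counted genes, so these figures do not cover genes with few counts, such as Shh and Hhip. All other genes were left unchanged and no shift with GC content was simulated, unlike the data here.

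By the rule for named genes the text may name all 9 members, up to 4 genes per pathway list, direction and comparison with the largest significant change, and the 5 nearest patterns for Ihh, Ptch1 and Gli1. Of the pathway genes so allowed the text names a subset, picked after their values were seen. One further gene of the pathway is not reported here. The members and lists were chosen with earlier results of these data known. Alternatives were limma-voom (limma 3.58.1), DESeq2 1.42.0, its size factors in edgeR, other filters, 9 separate libraries with and without the replicate number as a block, EBD5 replicates 1 and 3 as 1 sample, offsets from medians of 10 GC by 5 length bins, a test against a fold of 1.5, only the groups compared, and leaving out each library. Library totals in place of TMM factors were added after seeing the data.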

Additional observations from a re-analysis of the deposited data

How the results depend on the processing

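Over 22 settings, of the fold changes of members 498 kept their direction and side of the threshold, 17 kept the direction and no longer passed, 1 newly passed and 8 changed sign. A test against a fold of 1.5 left 5606 genes for EBD5 against EBD2 (of 11319), 5317 for EBD6 against EBD5 (of 11356) and 4918 for EBD6 against EBD2 (of 10685). In these comparisons it left 1 member higher from EBD2 to EBD5 (Ihh), 0 lower from EBD5 to EBD6, and 2 lower in EBD6 than in EBD2, and of the other pathway genes 5 higher and 9 lower, 13 higher and 3 lower, and 8 higher and 1 lower. Calls it ended among members were Ptch1 and Smo (EBD5 against EBD2), Ptch1 and Gli2 (EBD6 against EBD5), and Smo, Gli1 and Hhip (EBD6 against EBD2). That test asks for a larger change by its construction.

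Members lower from EBD5 to EBD6 were 1 (Ptch1) as reported, 0 with no filter, with EBD5 replicates 1 and 3 as 1 sample or with library totals (where Ptch1 was at 0.01), 2 with GC and length offsets, and 0 to 1 when each library was left out. Library totals also moved the median of all genes for EBD6 against EBD5 from 0.04 to 0.20, and the share of calls that were higher from 52.6% to 62.9%. Smo, EBD6 against EBD5, was −0.01 with DESeq2 size factors, −0.01 with DESeq2, between −0.01 (without EBD5 replicate 3) and 0.08 when each library was left out, and 0.18 with library totals (adjusted p = 0.0309, edgeR). The cause was not tested.

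For EBD6 against EBD5 with GC and length offsets, Smo was −1.0, Gli2 −0.06, Gas1 −0.26, Efcab7 0.11, Gsk3a −0.18 and Prkaca −0.14. For EBD5 against EBD2, Disp1 was 0.10 and Cul3 −0.02. With these offsets and the replicate block together, on 9 libraries, Smo was −0.63, Gli2 −0.04, Gas1 −0.28, Efcab7 0.60, Gsk3a −0.25, Prkaca −0.18, Tctn1 −0.01 and Mycn −0.02, Disp1 was 0.08 for EBD5 against EBD2, and members lower from EBD5 to EBD6 were 2.

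Replicates are numbered alike in the 3 groups. Correlations of deviations between libraries of different groups were −0.31 to 0.14 for the same number and −0.295 to 0.351 for different numbers. Same-numbered libraries thus did not deviate together more than others. With near-identical libraries in EBD2 and EBD6, this check cannot exclude a pairing by number. With the replicate block on 9 libraries, 11512, 11678 and 11452 genes passed for EBD5 against EBD2, EBD6 against EBD5 and EBD6 against EBD2, and the counts of members called were as reported. Depth limits what can be said of Dhh in every group, of Shh and Ihh in EBD2, of Shh in EBD5 and of Hhip in EBD5, where 16 counts were seen in all.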
